A study of Mus musculus with 24 samples.

Results

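The carboxylesterases (Ces), aldehyde dehydrogenases (Aldh), alcohol dehydrogenases (Adh) and aldo-keto reductases (Akr) are described here across mouse colon wall and colon epithelial cells. Members were chosen by symbol alone: every gene symbol beginning with Ces, Aldh, Adh or Akr and a digit, with Adh7 and Akr1b8 left out. This gave 59 members of 23329 gene symbols, from 61 that fit the pattern before the exclusion. They were 18 carboxylesterases, 20 aldehyde dehydrogenases, 5 alcohol dehydrogenases and 16 aldo-keto reductases.

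These enzymes handle esters, alcohols and carbonyl compounds from food, drugs, bacteria and the cell itself. Carboxylesterases split esters and amides, alcohol dehydrogenases turn alcohols into aldehydes or ketones, aldehyde dehydrogenases turn aldehydes into acids, and aldo-keto reductases turn carbonyl groups back into alcohols. In gut epithelium they take part in first-pass drug metabolism, lipid handling, steroid and prostaglandin turnover and, through the Aldh1a enzymes, the making of retinoic acid from vitamin A. Several are known targets of NRF2, the transcription factor that answers electrophilic and oxidative stress and is encoded by Nfe2l2.

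The libraries came from C57Bl/6 mice of a pair of genotypes. The control genotype is labelled VilCre, a Cre recombinase driven by the villin promoter of intestinal epithelium, and the other is labelled VilCre-CMVcaNrf2, which adds a transgene for an active form of NRF2. Both genotypes therefore carry the Cre, and smooth muscle, connective tissue and blood cells of the colon wall lie outside the cells in which villin is active. The 6 groups held 4 libraries each: epithelial cells of control and transgenic mice without treatment, untreated colon wall of each genotype, and colon wall of each genotype after dextran sulfate sodium (DSS), a compound that injures the colon lining of mice. DSS dose and duration, and the age and sex of the mice, are not given in the labels. Libraries are numbered 1 to 4 within a group as in the labels. The labels do not say whether they are separate animals, so each p-value reflects the variation among these libraries alone, and that variation may be technical. GEO's design text names 3 replicates, whereas every group here has 4 libraries.

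Total counts ran from 20232317 to 154335999 in the 16 wall libraries and from 6683785 to 15399870 in the 8 epithelial libraries. Levels given as TPM are the length-corrected values of the deposited files. Smooth muscle markers, 5 of 5 found, summed to between 5840 and 24152 TPM in the wall libraries and to at most 61.7 TPM in the epithelial ones. A pair of epithelial libraries, control 3 and transgenic 1, stood apart. Of 8 absorptive colonocyte markers looked for, 7 were found, all but Ms4a12. Their summed level was 32349 and 35041 TPM in the pair against 3100 to 9562 TPM in the other 6. Car1 alone gave 20927 and 24274 TPM of it in the pair, and each of the 7 was highest of its group there. In untreated transgenic wall, library 2 was close to the controls for several members, and the results that rest on it are given with and without it. The replicate 4 wall libraries carry another number prefix in the deposited file names than replicates 1 to 3, and no label explains that prefix. In bulk samples of this kind, fewer cells of a type and less RNA per cell cannot be told apart.

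Differences are given as log2 fold changes with their standard error (SE) from edgeR's quasi-likelihood test. A member is said to have risen or fallen when its Benjamini-Hochberg adjusted p, taken over all genes tested, was below 0.05. CPM is the count scaled to library size after edgeR's TMM scaling, done apart for wall and for epithelial cells. Genes are compared with each other in TPM only.

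The members differed in level by orders of magnitude. Of the 59, 19 reached 100 TPM in at least 1 library, 39 reached 10 TPM, 7 peaked between 1 and 10 TPM, and 13 stayed under 1 TPM in every library. Those 13 were Adh4, Adh6-ps1, Akr1c6, Akr1c20, Akr1c21, Akr1cl, Akr1d1, Aldh8a1, Ces1a, Ces3a, Ces3b, Ces4a and Ces5a, with between 0 and 147 counts each over all libraries. Ces4a had 0 counts in all 24 libraries, which at 3 counts allows up to 0.449 CPM in the shallowest library and 0.0194 CPM in the deepest, for counting error only. Adh6-ps1 and Ces2d-ps are pseudogenes by name.

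**Figure D1:**
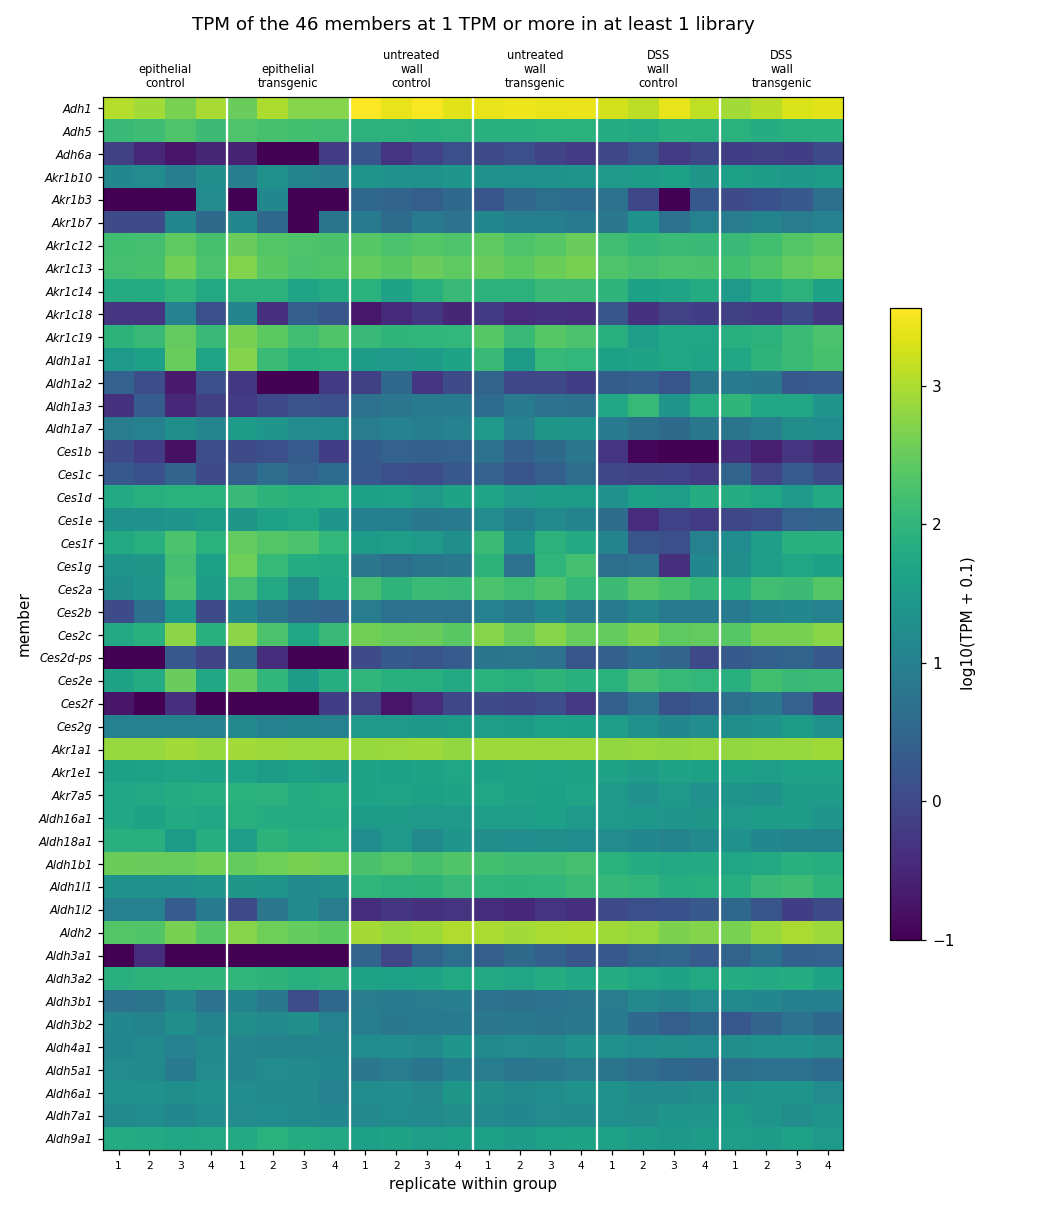
Level of the 46 members that reached 1 TPM in at least 1 library, as the logarithm to base 10 of TPM plus 0.1, with 1 row per member and 1 column per library in 6 groups of 4. Adh1, Akr1a1 and Aldh2 are bright in all libraries, while Ces2a, Ces2c and Aldh1a1 are brightest, among epithelial libraries, in control 3 and transgenic 1.

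Adh1, Aldh2 and Akr1a1 held most of the summed level in control wall. Adh1, the class I alcohol dehydrogenase that oxidises ethanol and retinol, was the most abundant member in control wall. It stood at 3655, 2626, 3276 and 2309 TPM in the untreated control wall libraries, a mean of 2966 ± 610.5 TPM (SD, n = 4) and 44.5% of the summed level of all members. In control epithelial cells it stood at 1155, 861, 445 and 941 TPM, a mean of 851 ± 298 TPM (SD, n = 4). The wall libraries all lay above the epithelial ones.

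Akr1a1, an aldehyde reductase of broad specificity, varied least among the abundant members. It had 734 ± 58.3 TPM in untreated control wall and 759 ± 58.6 TPM in control epithelial cells (SD, n = 4 each). The groups overlapped, and its log2 difference between the tissues was 0.07 ± 0.17 (SE). Aldh2, the mitochondrial enzyme that clears acetaldehyde, had a mean of 871 ± 135 TPM in untreated control wall and 273 ± 99.1 TPM in control epithelial cells (SD, n = 4 each). Among carboxylesterases Ces2c was highest in control wall at 321 ± 58.2 TPM, and among Akr1c members Akr1c13 was highest at 286 ± 35.9 TPM (SD, n = 4 each).

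The first question was what the caNrf2 transgene did to these enzymes in untreated colon wall. By edgeR's quasi-likelihood test 0 of 46 members tested passed, where 0.224% of all 16074 genes did. The smallest adjusted p was 0.0647, for Ces1g. At an unadjusted p below 0.05 there were 9 members (19.6%, against 10.5% of all genes), DESeq2 called 3 (Aldh1a1, Ces1g and Ces2d-ps, where it called 1.46% of all genes), and limma-voom with quality weights called 8 (15.5% of all genes). In 6 members the transgenic and control libraries did not overlap, which held for 6.64% of all genes. Aldh1a7, Akr1c19, Aldh3a2 and Ces2g were higher in the transgenic libraries (3.79% of all genes), and Aldh3b1 and Aldh1b1 were lower (2.85% of all genes). By edgeR none was called lower, where 0.0871% of all genes were. Aldh1b1 and Aldh3b1, both fitted below 0, were among the 8 called by limma-voom. The median log2 fold change of the members was 0.14, against -0.02 over all genes tested. Smooth muscle marker sums did not overlap between the genotypes either, at 8802 to 9676 TPM in controls and 6810 to 8622 TPM in transgenic wall. Their part in the genotype values was not tested.

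Averaged over untreated and DSS-treated wall, 2 of 46 members rose with the transgene, Ces1g and Aldh1a1, where 0.274% of all genes passed. By edgeR none fell, where 0.0249% of all genes did, and Aldh3b1, fitted below 0, was among the 4 called by limma-voom (1.27% of all genes). A total of 36 of the 46 were fitted above 0, as were 7152 of all 16074 genes. There were 13 with an unadjusted p below 0.05 (28.3%, against 4.79% of all genes). All 13 tested carboxylesterases were fitted above 0, with a median of 0.59, while the 19 aldehyde dehydrogenases had a median of 0.10. These counts describe the members and were not tested as a list.

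Ces1g (chromosome 8, 93302369 to 93337209, minus strand) encodes a carboxylesterase of liver and gut that is known for hydrolysing lipid esters. In untreated control wall it stood at 8.75, 5.65, 8.16 and 7.11 CPM, and in transgenic wall at 115, 6.94, 126 and 213 CPM. Libraries 1, 3 and 4 of the transgenic group lay far above all controls, while library 2 lay among them. After DSS the control libraries had 4.87, 5.79, 0.403 and 15.8 CPM and the transgenic ones 17.9, 38.3, 60.6 and 56.6 CPM, and the groups did not overlap. The averaged log2 fold change was 3.30 ± 0.58 (SE), with an edgeR adjusted p of 0.0175. It was 3.95 ± 0.84 (SE) in untreated wall and 2.66 ± 0.80 (SE) after DSS.

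Leaving out 1 library at a time kept the averaged value of Ces1g between 3.07 and 3.73, with adjusted p from 0.000618 to 0.0608 and 12 of 16 such fits past the threshold. The call was lost without untreated control library 1, 2 or 3 or DSS control library 2. DESeq2 also called Ces1g, and limma-voom did not. Without untreated transgenic library 2 the value of Ces1g in untreated wall was 4.34 ± 0.66 (SE), with an edgeR adjusted p of 0.00581. That library is the one with Ces1g at the control level, so a larger value without it follows from the choice and is no support.

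Aldh1a1 (chromosome 19, 20601982 to 20643462, plus strand) is a cytosolic enzyme that makes retinoic acid. It had 41.8, 32.5, 42.2 and 41.8 CPM in untreated control wall and 136, 37.0, 125 and 125 CPM in transgenic wall. Transgenic library 2 again lay within the control range, and the other 3 were above it. After DSS the controls had 36.8, 42.9, 58.8 and 48.2 CPM and the transgenic libraries 46.7, 88.3, 136 and 221 CPM, so that 1 transgenic library overlapped the controls. The averaged log2 fold change was 1.41 ± 0.28 (SE), with an edgeR adjusted p of 0.0428. That call held in 2 of 16 fits that left out 1 library, those without untreated transgenic library 2 or transgenic DSS library 1. Over the 16 the values lay between 1.19 and 1.56 and the adjusted p between 0.00339 and 0.119.

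Aldh1a7 (chromosome 19, 20692953 to 20727556, minus strand) lies beside Aldh1a1 and encodes a close relative. It had 10.8, 11.8, 11.5 and 10.1 CPM in untreated control wall and 34.0, 13, 29.1 and 27.2 CPM in transgenic wall, with no overlap. After DSS the groups overlapped, at 4.18 to 7.60 CPM in controls and 4.73 to 21.6 CPM in transgenic libraries. Its averaged log2 fold change of 1.22 ± 0.27 (SE) did not pass, with an edgeR adjusted p of 0.0882.

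Ces1f (chromosome 8, 93256236 to 93279736), a triglyceride-handling neighbour of Ces1g, differed most between genotypes after DSS. The DSS control libraries had 9.96, 1.41, 1.31 and 9.81 CPM and the transgenic ones 13.2, 33.0, 77.6 and 95.2 CPM, without overlap. The log2 fold change there was 3.26 ± 0.72 (SE), with an edgeR adjusted p of 0.15. In untreated wall the controls had 35.8, 36.5, 33.7 and 16.4 CPM and the transgenic libraries 137, 24.5, 89.8 and 67.7 CPM. Transgenic library 2 lay within the controls and the other 3 above them. Averaged over the wall the value was 2.32 ± 0.49 (SE), with an edgeR adjusted p of 0.0624.

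Akr1c19 (chromosome 13, 4233740 to 4248359, plus strand), a member of the steroid- and prostaglandin-reducing branch, had 86.3, 64.0, 76.6 and 58.5 CPM in untreated control wall and 161, 88.0, 156 and 130 CPM in transgenic wall. All transgenic libraries lay above all controls, library 2 by the smallest margin. After DSS the controls had 21.9 to 41.1 CPM and the transgenic libraries 36.3 to 145 CPM, and the groups overlapped. The averaged value was 1.09 ± 0.24 (SE), with an edgeR adjusted p of 0.0798. Ces1c, a secreted plasma carboxylesterase, had an averaged value of 1.05 ± 0.25 (SE) and an adjusted p of 0.139.

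**Figure D2:**
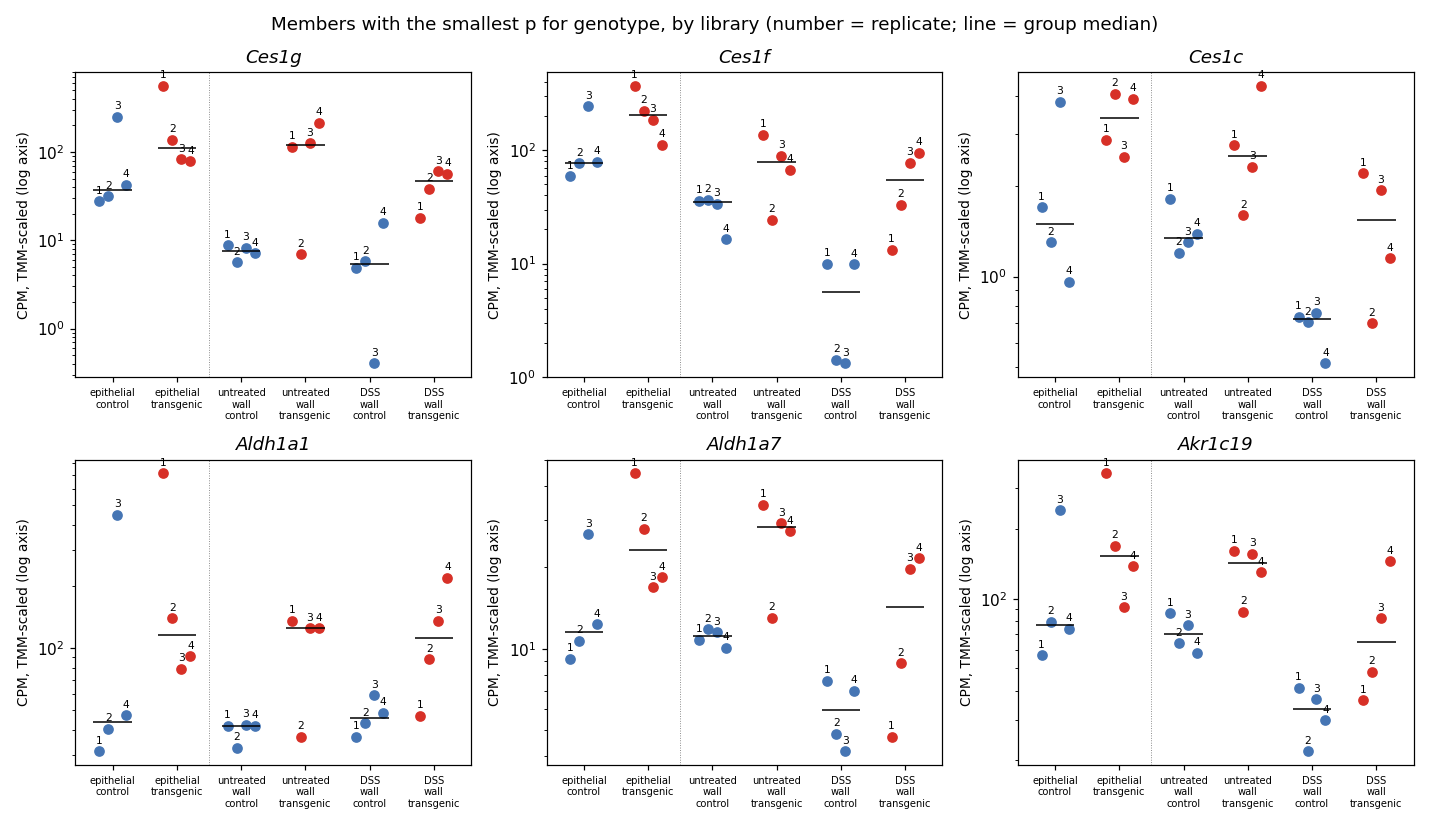
CPM of 6 members in every library on a log axis, by group, with controls in blue, transgenic libraries in red, the replicate number beside each point and the group median as a line. In untreated wall, transgenic library 2 sits at the level of the controls for Ces1g, Ces1f and Aldh1a1, and libraries 1, 3 and 4 sit above all controls.

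Without untreated transgenic library 2, 5 of 46 members passed in the averaged comparison (10.9%, against 0.397% of all genes in that fit): Akr1c19, Aldh1a1, Aldh1a7, Ces1f and Ces1g. Without transgenic DSS library 1 it was 5 of 47 (10.6%, against 0.45% of all genes). Each of these libraries is low for several of the members counted, so these counts describe the libraries and give no support. In untreated wall 1 of 46 passed without library 2, Ces1g, where 0.255% of all genes did. In untreated wall, 10 of 46 members (21.7%, against 5.0% of all genes) were higher in transgenic libraries 1, 3 and 4 than in every control. In 6 of these 10 library 2 lay within the control range, as it did in 176 of 804 such genes among all genes tested. Those 6 were Aldh1a1, Ces1b, Ces1c, Ces1e, Ces1f and Ces1g. Library 2 was set apart with its values known, so these counts too are a description and give no support. Of 7 absorptive colonocyte markers library 2 was lowest of its group in 1, Car1, at 3047 TPM against 7376, 8939 and 6057 TPM in libraries 1, 3 and 4 and 779 to 2942 TPM in untreated controls. It was highest of its group in 3 of the 7, and library 4 was lowest in the other 6. The part of Car1 and of the other markers in the result was not tested.

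Ces2d-ps showed a genotype difference of 1.58 ± 0.43 (SE) in untreated wall and -0.18 ± 0.43 (SE) after DSS. Its untreated control libraries had 1.26, 2.06, 1.78 and 1.84 CPM and its transgenic ones 6.34, 7.09, 5.60 and 1.60 CPM. Library 4 was the low one here, unlike in the members above. Aldh3b1, an enzyme for medium- and long-chain aldehydes, had the lowest p among members fitted below 0. It had 9.36, 7.36, 9.87 and 7.57 CPM in untreated control wall and 5.04, 5.20, 5.31 and 6.40 CPM in transgenic wall. The groups did not overlap, and the log2 fold change was -0.64 ± 0.20 (SE), with an edgeR adjusted p of 0.234.

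After DSS, by edgeR's quasi-likelihood test 0 of 46 members passed for genotype, where 0.0933% of all genes did. There were 7 members with an unadjusted p below 0.05 (15.2%, against 2.53% of all genes), DESeq2 called 1 (Ces1f, where it called 0.268% of all genes) and limma-voom called 0 (0.0% of all genes). Ces1f and Ces1g were the 2 members whose groups did not overlap, which held for 1.67% of all genes. Among transgenic DSS libraries, library 1 was the lowest in 33 of 46 members (71.7%, against 23.8% of all genes tested). That library also had the lowest summed absorptive colonocyte marker level of the group, 7182 TPM against 10352 to 12267 TPM, and was lowest in 4 of the 7 markers. Its fibroblast marker sum was the highest, 2238 TPM against 805 to 1688 TPM, and the part of these markers was not tested. Adipocyte markers, 7 of 7 found, did not overlap between the genotypes after DSS, at 155 to 430 TPM in controls and 482 to 620 TPM in transgenic wall, and their part in the genotype values after DSS was not tested.

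Of the 2 genes that the rule left out, Adh7 passed in the averaged comparison and Akr1b8 did not. Akr1b8 had 108, 112, 111 and 42.4 CPM in untreated control wall and 385, 85.7, 277 and 299 CPM in transgenic wall, with library 2 again among the controls. Its averaged log2 fold change was 1.59 ± 0.34 (SE), with an edgeR adjusted p of 0.0727. Adh7 had 0.676, 0.300, 0.751 and 0.461 CPM in untreated control wall and 4.86, 0.803, 4.87 and 1.54 CPM in transgenic wall, without overlap. It rose by 3.24 ± 0.44 (SE) in the averaged comparison, with an edgeR adjusted p of 0.00158.

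Among 22 other carbonyl reductase and polyol pathway genes, 22 were tested in the wall and 2 rose in the averaged comparison, Nqo1, the quinone reductase, by 2.64 ± 0.36 (SE) and Cbr3, a carbonyl reductase, by 2.82 ± 0.43 (SE). None of 26 tested retinoid pathway genes and none of 14 other ester and lipid hydrolases passed there by edgeR, with 2 and 1 at an unadjusted p below 0.05. Esd, an S-formylglutathione hydrolase, had the smallest adjusted p of the hydrolases at 0.0828, with a log2 fold change of 0.86 ± 0.19 (SE).

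The sequence just before the annotated start is shown for Ces1g and Aldh1a1, which passed in the averaged comparison, and for Aldh1a7, which did not. Ces1f and Akr1c19, which also did not pass, had smaller adjusted p than Aldh1a7 and are not shown at this length. The 250 bases upstream were taken from RefSeq promoters on build GRCm38.p6, 5′ to 3′ on the gene's strand. Capitals in Aldh1a1 and Aldh1a7 mark their longest shared run, and capitals in Ces1g mark TATAAA on the opposite strand.
Ces1g: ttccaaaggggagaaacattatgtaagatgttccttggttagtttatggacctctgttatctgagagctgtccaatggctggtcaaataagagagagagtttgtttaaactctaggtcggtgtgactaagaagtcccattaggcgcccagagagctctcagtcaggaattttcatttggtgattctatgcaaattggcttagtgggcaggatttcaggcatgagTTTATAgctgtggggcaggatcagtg
Aldh1a1: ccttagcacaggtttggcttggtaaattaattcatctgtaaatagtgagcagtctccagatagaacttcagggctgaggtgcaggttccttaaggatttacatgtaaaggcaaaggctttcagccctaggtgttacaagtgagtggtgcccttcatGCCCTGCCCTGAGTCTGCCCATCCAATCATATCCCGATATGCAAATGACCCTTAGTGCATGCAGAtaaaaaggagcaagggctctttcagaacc
Aldh1a7: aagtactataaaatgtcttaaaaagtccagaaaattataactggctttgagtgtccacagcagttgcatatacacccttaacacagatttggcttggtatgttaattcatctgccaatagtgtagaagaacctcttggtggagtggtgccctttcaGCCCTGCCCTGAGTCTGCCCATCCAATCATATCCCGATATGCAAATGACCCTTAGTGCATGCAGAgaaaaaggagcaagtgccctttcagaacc
The windows are chr8:93337210-93337459 (minus strand), chr19:20601718-20601967 (plus strand) and chr19:20727557-20727806 (minus strand). In Aldh1a1 and Aldh1a7 a run of 65 bases was identical and lay at the same distance from both promoter starts, from base -94 to base -30. Any link between this run and the levels of these genes was not tested. Bases are counted from the start of the promoter entry, which for Aldh1a1 lies 14 bases before the gene start given above. In a global alignment 185 bases of the 250 were identical (74.0%), against 145 to 154 bases for the 5 other pairs among Ces1g, Aldh1a1, Aldh1a7 and Akr1c19.

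The core of the antioxidant response element, through which NRF2 binds, was searched as TGACNNNGC on both strands in the 300 bases from 250 before to 50 after the start. Of 59 members, 45 had a promoter entry that could be used, and 5 of these (11.1%) held a match, against 12.4% of all 32851 promoters. The 5 were Adh6a, Akr1c19, Akr1cl, Aldh1a2 and Aldh9a1. Akr1c19 is the one among them with genotype values given above, and its averaged difference did not pass (edgeR adjusted p 0.0798). Its match lies on the opposite strand from the 8th base after the start, shown in capitals within chr13:4233737-4233765.
Akr1c19: agcagaacttGCTTAGTCAgaagagtgat
Ces1g, Aldh1a1 and Aldh1a7 held no such letters in this window. The related motif TGANTCA, searched on both strands, was in 0 of the 45 and in 7.81% of all promoters, and TATAAA was in 5 (11.1%) and in 13.6%. A match is a description of letters and not of binding.

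In isolated epithelial cells, by edgeR's quasi-likelihood test 0 of 40 members tested passed for genotype, as did 0.0% of all 12941 genes. A single member had an unadjusted p below 0.05 (2.5%, against 10.4% of all genes), DESeq2 called 0 (1.66% of all genes) and limma-voom with quality weights called 8 (9.98% of all genes). In 0 members were the groups without overlap, which held for 7.26% of all genes (2.77% higher and 4.49% lower in transgenic cells). Of the 40, 31 were fitted above 0, as were 6477 of all 12941 genes, with a median of 0.20 against 0.00 over all genes. The smallest p was that of Ces1e, at 0.59 ± 0.25 (SE) and an adjusted p of 0.462, followed by Aldh1a7 at 0.87 ± 0.41 (SE).

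For Ces1g and Aldh1a1, control library 3 and transgenic library 1 were the highest of their epithelial groups. Ces1g had 27.5, 31.4, 250 and 42.8 CPM in control and 563, 137, 82.6 and 78.7 CPM in transgenic epithelial cells. Aldh1a1 had 31.4, 40.4, 448 and 46.9 CPM in controls and 712, 140, 79.2 and 91.0 CPM in transgenic cells. In both genes control library 3 lay above 3 of 4 transgenic libraries, and all other control libraries lay below every transgenic one.

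With control library 3 and transgenic library 1 left out, 6 of 40 members passed as higher (15%, against 6.43% of all genes in that fit): Ces1g by 1.56 ± 0.24 (SE), Aldh1a1 by 1.39 ± 0.22, Ces1f by 1.28 ± 0.23, Aldh1a7 by 0.97 ± 0.25, Akr1c19 by 0.92 ± 0.21 and Aldh2 by 0.50 ± 0.12. Their edgeR adjusted p ran from 0.013 to 0.0499. Control library 3 was itself the highest control for each of these 6, and the pair was picked out with values of these libraries known, so the counts and p-values without it are a description and give no independent support. Across the 40 members tested in both, 29 had the same sign for genotype in epithelial cells and untreated wall (72.5%, against 59.0% of all genes).

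The difference of the genotype effect between epithelial cells and untreated wall was tested directly, and 0 of 46 members passed (0.0% of all genes). By edgeR 2 had an unadjusted p below 0.05 (4.35%, against 7.98% of all genes), DESeq2 called 0 (0.438% of all genes), and limma-voom called 1, Aldh1b1 (5.49% of all genes). For Ces1g that difference was -2.65 ± 1.2 (SE), with an adjusted p of 0.611.

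That pair was high in most members. In 27 of 40 members (67.5%, against 24.7% of all genes) control library 3 and transgenic library 1 were both above the other 6 libraries. In 2 members, Aldh18a1 and Aldh1l2, both were below them (5.0%, against 18.6% of all genes). Ces2c, an intestinal carboxylesterase, stood at 59.0, 82.3, 799 and 76.2 CPM in control and 796, 194, 50.3 and 128 CPM in transgenic cells. Ces2a stood at 254 and 206 CPM in the pair and at 18.4 to 59.4 CPM in the other 6. Akr1c18, which inactivates progesterone, had 8.14 and 8.51 CPM in the pair and 0.189 to 1.37 CPM elsewhere.

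Aldh1l2, the mitochondrial enzyme of folate-bound one-carbon metabolism, went the other way, with 8.56 and 4.02 CPM in the pair and 21.5 to 50.4 CPM in the other 6. Aldh18a1, which makes a precursor of proline, had 74.3 and 88.3 CPM in the pair and 123 to 171 CPM elsewhere. Crypt stem cell markers, 5 of 5 found, summed to 33.0 and 35.8 TPM in the pair and to 122 to 169 TPM in the other 6. Fibroblast markers summed to 3.94 and 7.79 TPM in the pair and to 30.0 to 91.0 TPM in the other 6. Endothelial markers summed to 2.90 and 2.86 TPM against 16.5 to 37.3 TPM, and smooth muscle markers to 7.60 and 8.92 TPM against 26.1 to 61.7 TPM. These marker levels move with the members, and their part was not tested.

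**Figure D3:**
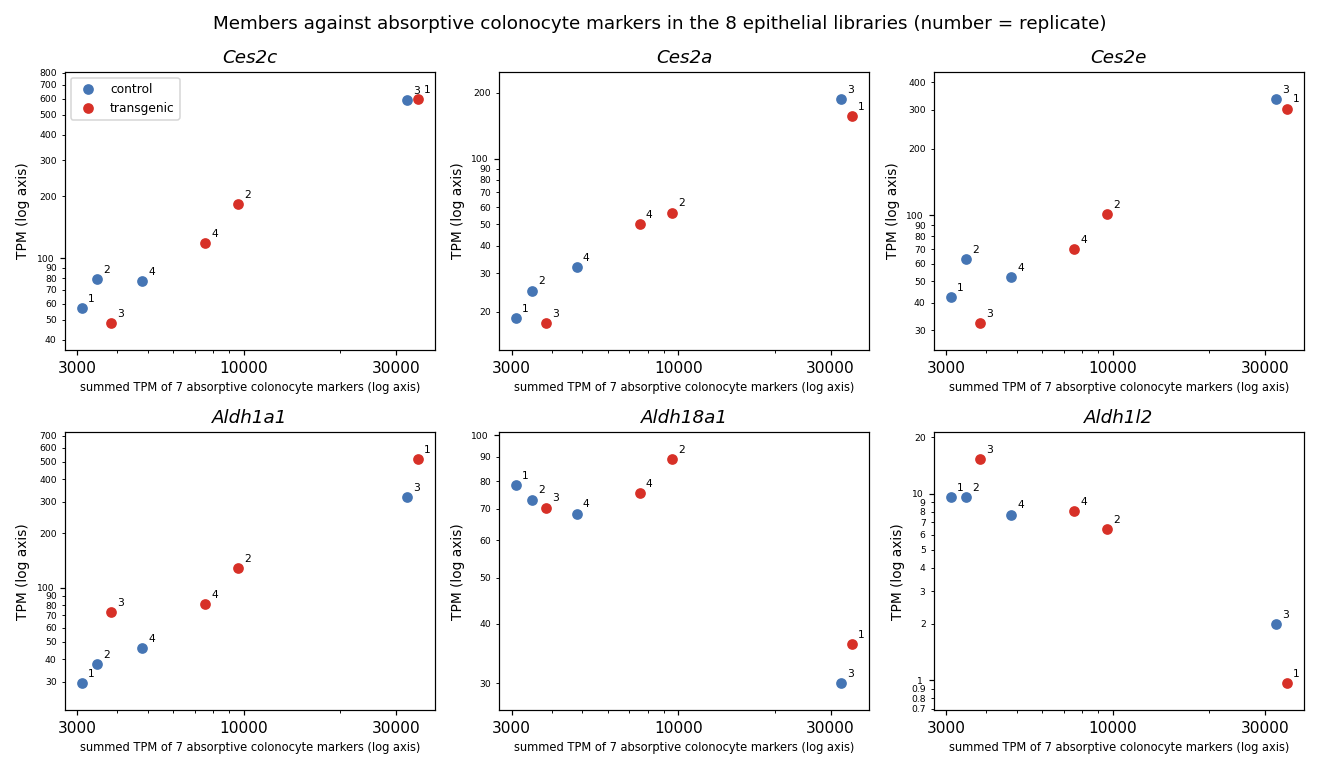
TPM of 6 members against the summed TPM of 7 absorptive colonocyte markers in the 8 epithelial libraries, both on log axes, with controls in blue, transgenic libraries in red and the replicate number beside each point. Control 3 and transgenic 1 sit at the far right at 32349 and 35041 TPM of marker sum, highest for Ces2c, Ces2a, Ces2e and Aldh1a1 and lowest for Aldh18a1 and Aldh1l2.

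DSS changed the members about as often as other genes. In control wall 18 of 46 passed edgeR's quasi-likelihood test (39.1%), against 39.2% of all genes. Of the 18, 4 rose and 14 fell, where 23.1% of all genes rose and 16.1% fell. In transgenic wall 17 passed (37.0%), against 41.2% of all genes. Of the 17, 6 rose and 11 fell, where 23.1% of all genes rose and 18.1% fell. Groups did not overlap in 19 members in controls (33.3% of all genes) and in 15 in transgenic wall (35.0% of all genes). At an unadjusted p below 0.05 there were 25 members in controls (48.6% of all genes) and 23 in transgenic wall (50.1% of all genes), and DESeq2 called 22 in each (43.1% and 44.3% of all genes). The median log2 fold change of the members was -0.28 in controls and -0.30 in transgenic wall, against 0.06 and 0.01 over all genes. Without untreated control library 1 the count in controls was 11 of 46 (23.9%, against 30.7% of all genes in that fit), and without transgenic DSS library 2 that in transgenic wall was 11 of 47 (23.4%, against 31.3%).

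The comparisons in the 2 genotypes share no library, and 10 members passed in both, all in the same direction. These were 55.6% of the 18 and 58.8% of the 17, where for all genes the shares were 72.8% and 69.2%. Aldh1a3, Aldh1l2 and Ces2f rose in both, and Akr7a5, Aldh18a1, Aldh1b1, Aldh3b2, Aldh5a1, Ces1b and Ces1e fell in both.

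Aldh1a3, a retinoic acid-making enzyme, rose most. It had 10.3, 11.7, 17 and 11.8 CPM in untreated control wall and 91.0, 196, 47.2 and 119 CPM after DSS. In transgenic wall it had 7.42, 15, 9.52 and 8.93 CPM untreated and 143, 90.4, 98.9 and 53.0 CPM after DSS. Every DSS library was above every untreated library, with log2 fold changes of 3.16 ± 0.38 (SE, edgeR adjusted p 7.96e-05) in controls and 3.23 ± 0.39 (SE, adjusted p 5.42e-05) in transgenic wall. By edgeR with all libraries the other Aldh1a members did not pass in either genotype. DESeq2 called Aldh1a7 in controls and Aldh1a2 and Aldh1a7 in transgenic wall, where it called 43.1% and 44.3% of all genes. With limma-voom both were called in both genotypes, as were 59.1% and 58.3% of all genes. Aldh1a7 was fitted below 0.

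Aldh1l2 rose by 1.76 ± 0.35 (SE) in controls, from 1.11 to 1.5 CPM untreated to 3.16 to 5.64 CPM, and by 2.15 ± 0.36 (SE) in transgenic wall. Ces2f, a low-level carboxylesterase with 2 to 206 counts per wall library, rose by 2.28 ± 0.61 and 1.83 ± 0.60 (SE). Without untreated transgenic library 2, or 4, or transgenic DSS library 2, its call in transgenic wall was lost. Akr1c18 passed in controls alone, by 1.34 ± 0.48 (SE), and Aldh3b1, Aldh7a1 and Akr1b10 in transgenic wall alone, by 0.93 ± 0.20, 0.51 ± 0.15 and 0.41 ± 0.16 (SE). The call of Akr1c18 was lost in 5 of 8 fits that left out 1 library, those without untreated control library 1, 2 or 4 or DSS control library 1 or 3. That of Akr1b10 was lost in 7 of 8, and it held without transgenic DSS library 3.

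The steepest falls were in the Ces1 cluster, which spans 93020215 to 93337209 on chromosome 8. Ces1b had 130, 66, 271 and 272 counts in untreated control wall and 12, 1, 0 and 0 after DSS, and 123, 435, 124 and 407 counts in untreated transgenic wall and 11, 4, 16 and 7 after DSS. Its log2 fold changes were -4.75 ± 0.69 and -4.15 ± 0.61 (SE). Over 16 alternative fits the value in controls, where library 1 held most of the DSS counts, ran from -7.83 to -4.24. In transgenic wall it ran from -4.41 to -3.94, and the call held in every fit in both. Ces1e had 11.6, 10.5, 8.75 and 6.89 CPM in untreated control wall and 3.92, 0.295, 0.855 and 0.580 CPM after DSS, and fell by 2.75 ± 0.63 (SE) in controls and 2.81 ± 0.62 (SE) in transgenic wall. Ces1f fell by 2.42 ± 0.70 (SE) in controls and was at -0.54 ± 0.65 (SE) in transgenic wall, and the difference of 1.88 ± 0.94 (SE) did not pass, with an adjusted p of 0.677. Of 6 tested Ces1 members 4 fell in controls and 2 in transgenic wall, where 16.1% and 18.1% of all genes fell, while Ces1d, the main triglyceride hydrolase of the group, was at 0.03 ± 0.29 and 0.44 ± 0.29 (SE).

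Aldh1b1, a mitochondrial enzyme known from intestinal stem and progenitor cells, had 249, 281, 257 and 228 CPM in untreated control wall and 89.5, 76.3, 73.7 and 72.2 CPM after DSS. In transgenic wall it had 197, 194, 177 and 224 CPM untreated and 49.3, 66.0, 95.0 and 103 CPM after DSS. No DSS library reached an untreated one, and it fell by 1.70 ± 0.19 (SE) and 1.34 ± 0.18 (SE). Aldh5a1, which degrades the GABA product succinic semialdehyde, fell by 1.01 ± 0.17 and 0.85 ± 0.17 (SE). Akr7a5, an aflatoxin aldehyde reductase, fell by 0.97 ± 0.21 and 0.80 ± 0.21 (SE), Aldh18a1 by 0.76 ± 0.17 and 0.47 ± 0.17 (SE), and Aldh3b2 by 1.06 ± 0.35 and 1.05 ± 0.36 (SE). The call of Aldh18a1 in transgenic wall was lost in 5 of 8 fits that left out 1 library, without untreated library 1, 2 or 3 or DSS library 2 or 3. The call of Aldh3b2 was lost in 4 of 8 in controls (without untreated library 1 or DSS library 2, 3 or 4) and in 4 of 8 in transgenic wall (without untreated library 2 or 4 or DSS library 1 or 2).

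Among the Akr1c reductases 3 of 5 tested fell in control wall, where 16.1% of all genes did, Akr1c19 by 1.14 ± 0.34, Akr1c12 by 0.94 ± 0.29 and Akr1c13 by 0.81 ± 0.29 (SE). In transgenic wall Akr1c14, which reduces steroids at a keto group, was the 1 of 5 that fell, by 1.0 ± 0.33 (SE). Akr1c19, Akr1c12 and Akr1c13 stood at -0.78 ± 0.33, -0.50 ± 0.29 and -0.46 ± 0.29 (SE) there and did not pass. The call of Akr1c19 in controls held in every fit that left out 1 library, while that of Akr1c12 was lost in 2 of 8, without untreated library 1 or DSS library 2, and that of Akr1c13 in 6 of 8, all but those without untreated library 2 or 4.

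Adh1, despite its abundance, did not pass in the main edgeR fit. It passed in 8 of 16 alternative fits in controls and in 4 of 16 in transgenic wall, DESeq2 and limma-voom among them in both. It had 1408 to 2895 CPM in untreated control wall and 836 to 1817 CPM after DSS, a log2 fold change of -0.93 ± 0.36 (SE) with an edgeR adjusted p of 0.0512. In transgenic wall the value was -0.81 ± 0.36 (SE), with an adjusted p of 0.082. The Ces2 genes, which span 104734003 to 104969537 on chromosome 8, had a median log2 fold change of 0.37 in controls. Of the 7, 5 were fitted above 0, as were 8732 of all 16074 genes. Ces2f was the 1 of 7 that passed in controls (14.3%, against 39.2% of all genes). In transgenic wall the median was -0.14, and 3 of 7 were fitted above 0, as were 8144 of all 16074 genes. There 3 of 7 passed (42.9%, against 41.2% of all genes). Ces2g fell by 0.82 ± 0.24 and Ces2d-ps by 1.19 ± 0.43 (SE) in transgenic wall, and the call of Ces2d-ps was lost in 6 of 8 fits that left out 1 library, all but those without untreated transgenic library 4 or transgenic DSS library 3.

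**Figure D4:**
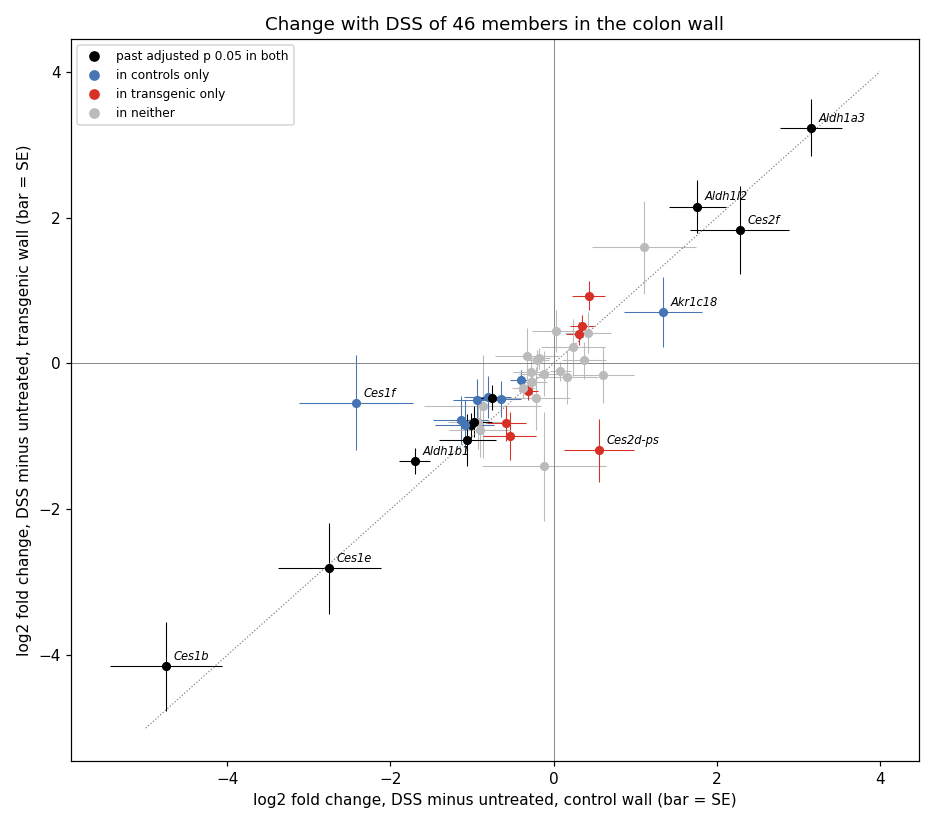
Log2 fold change with DSS of 46 members in control wall (horizontal) and transgenic wall (vertical), with SE bars and a dotted line of equal change. Black points passed in both genotypes, and blue and red points in control or transgenic wall alone, and grey points in neither. Aldh1a3 lies at 3.16 and 3.23, and Ces1b at -4.75 and -4.15.

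Summed markers of other cells also differed between untreated and DSS-treated wall. Fibroblast markers, 6 of 6 found, summed to 377 to 629 TPM in untreated and 1026 to 2105 TPM in DSS-treated control wall, and to 410 to 551 TPM and 805 to 2238 TPM in transgenic wall. Crypt stem cell markers summed to 49.6 to 95.1 TPM in untreated and 18.5 to 40.0 TPM in DSS-treated control wall, and to 52.9 to 69.1 TPM and 12 to 68.2 TPM in transgenic wall, sums that Smoc2 leads. The defining marker Lgr5 ran from 1.72 to 3.59 TPM untreated and 0.13 to 0.22 TPM after DSS in controls, and from 2.12 to 3.87 TPM and 0.10 to 0.30 TPM in transgenic wall. Ascl2 ran from 3.39 to 13.1 TPM and 0.09 to 0.19 TPM in controls and from 7.96 to 9.88 TPM and 0.08 to 0.52 TPM in transgenic wall, so that neither overlapped. General epithelial markers overlapped, at 11583 to 15272 TPM untreated and 8789 to 12884 TPM after DSS in controls. Endothelial, enteroendocrine and macrophage and dendritic marker sums were higher after DSS without overlap in both genotypes. Liver and pancreas acinar marker sums were lower without overlap in both. The part of these markers in the DSS results was not tested.

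Whether DSS acted unequally in the 2 genotypes was tested for all 46 members, and 0 passed by edgeR, as did 0.0% of all genes. There was 1 member with an unadjusted p below 0.05 (2.17%, against 7.96% of all genes), and DESeq2 and limma-voom called 0 each (0.249% and 0.703% of all genes). That member was Ces2d-ps, at -1.75 ± 0.61 (SE) with an adjusted p of 0.479. With wall replicate 4 of every group left out it passed, at -2.35. For Aldh1a3 the difference was 0.07 ± 0.50, for Aldh1b1 0.37 ± 0.26 and for Ces1b 0.60 ± 0.91 (SE).

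Of 26 other retinoid pathway genes tested, 9 rose and 3 fell with DSS in control wall (46.2% called, against 39.2% of all genes), and 11 rose and 4 fell in transgenic wall (57.7%, against 41.2%). Dhrs3, which reduces retinal back to retinol, rose by 1.55 ± 0.20 and 0.97 ± 0.20 (SE), and the retinoic acid receptor gene Rarb rose by 1.74 ± 0.29 and 1.64 ± 0.29 (SE). Cyp26b1, which degrades retinoic acid, rose by 2.31 ± 0.67 and 1.76 ± 0.67 (SE). Rbp7, a retinol-binding protein, fell by 1.52 ± 0.37 and 1.64 ± 0.37 (SE). In controls 4 of 14 other ester and lipid hydrolases rose and 1 fell (35.7% called, against 39.2% of all genes). Of these 14, 6 rose and 1 fell in transgenic wall, and the 7 called were a larger share than the 41.2% of all genes. Of 22 other carbonyl reductase and polyol pathway genes, 3 rose and 5 fell in controls (36.4% called, against 39.2%). Among the same 22, 4 rose and 3 fell in transgenic wall (31.8% called, against 41.2%).

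Epithelial cells and untreated wall were compared last. Absorptive colonocyte markers summed to 3100, 3473, 32349 and 4799 TPM in control epithelial libraries 1 to 4. In untreated control wall they summed to 7087 to 10068 TPM. In transgenic mice the ranges were 3834 to 35041 TPM and 9557 to 14910 TPM. General epithelial markers overlapped in controls, at 8073 to 15314 TPM and 11583 to 15272 TPM. The part of these markers in the tissue results was not tested. In controls 24 of 46 members differed by edgeR's quasi-likelihood test (52.2%, against 38.6% of all genes). Of the 24, 15 were higher and 9 lower in epithelial cells, where 18.9% of all genes were higher and 19.7% lower. In transgenic mice 25 differed (54.3%, against 43.5% of all genes), 14 higher and 11 lower (20.0% and 23.5% of all genes). The groups did not overlap in 23 members in each genotype, against 37.6% and 40.5% of all genes. A total of 23 members passed in both genotypes, all in the same direction, 14 higher and 9 lower. These were 95.8% of the calls in controls and 92.0% of those in transgenic mice, where for all genes the shares were 79.3% and 70.4%, and the 2 comparisons share no library.

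Higher in epithelial cells were Aldh1l2, by 4.30 ± 0.59 in controls and 4.61 ± 0.60 (SE) in transgenic mice. It had 9.59, 9.56, 1.99 and 7.72 TPM in control epithelial cells and 0.29, 0.43, 0.35 and 0.38 TPM in control wall. In controls every epithelial library was above every untreated wall library, the lowest epithelial one being library 3. Ces1e, at 1.60 ± 0.24 and 1.51 ± 0.24 (SE), Aldh18a1, at 1.57 ± 0.25 and 1.94 ± 0.25, Ces1d, at 1.06 ± 0.21 and 1.45 ± 0.21, and Aldh1b1, at 0.85 ± 0.11 and 1.27 ± 0.11, also passed in both. Ces1g passed in controls at 3.55 ± 0.92 (SE) and did not in transgenic mice, where the value was 0.90 ± 0.83 (SE). Without control library 3 and transgenic library 1 its value in controls was 2.18 ± 0.64 (SE), with an edgeR adjusted p of 0.0105.

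Lower in epithelial cells were Aldh1l1, a cytosolic folate enzyme, by 2.12 ± 0.19 in controls and 2.31 ± 0.19 (SE) in transgenic mice on the log2 scale. Its levels were 21.5 to 22.8 TPM in control epithelial cells and 83.8 to 118 TPM in control wall. Adh1 was lower by 1.85 ± 0.30 and 2.16 ± 0.30 (SE), Aldh2 by 1.60 ± 0.30 and 1.34 ± 0.30 (SE), Ces2g by 1.49 ± 0.17 and 1.65 ± 0.17 (SE), and Aldh1a3 by 2.98 ± 0.49 and 2.38 ± 0.48 (SE). Aldh3a1, a corneal and stress-linked enzyme, had 0 counts in all 4 transgenic epithelial libraries and 740 counts in the untreated transgenic wall libraries. Set against 3 counts over that epithelial group, it was at least 33.8-fold lower.

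**Figure D5:**
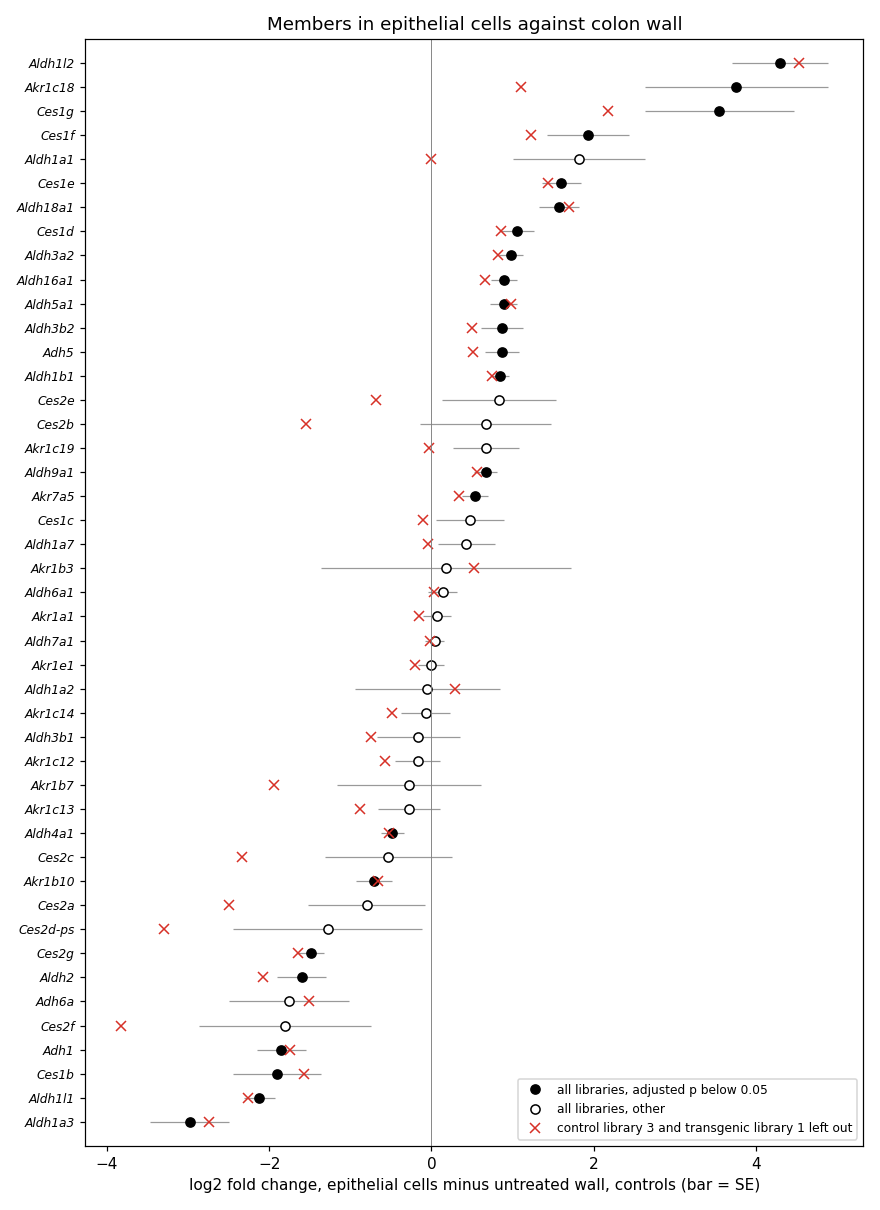
Log2 fold change between control epithelial cells and untreated control wall for 45 members (Aldh3a1, near 0 counts in epithelial cells, is not drawn), with SE bars, filled circles for adjusted p below 0.05 and crosses for the fit without control library 3 and transgenic library 1. The crosses of Ces2a, Ces2c and Ces2b lie at -2.49, -2.33 and -1.55, left of their circles.

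The Ces2 genes depended on the pair of libraries that stood apart. With all libraries Ces2c was at -0.53 ± 0.78 and Ces2a at -0.80 ± 0.72 (SE) in controls, and neither passed. Without control library 3 and transgenic library 1 they were lower in epithelial cells by edgeR, Ces2c at -2.33 ± 0.38 (SE, adjusted p 0.000123) and Ces2a at -2.49 ± 0.37 (SE, adjusted p 5.51e-05). In that fit 28 of 47 members passed in controls (59.6%, against 47.6% of all genes), 12 higher and 16 lower, and 35 of 47 in transgenic mice (74.5%, against 52.8%), 14 higher and 21 lower. Akr1c18, at 3.76 ± 1.13 (SE) with all libraries, no longer passed in controls, nor did Akr7a5 and Aldh3b2. The call of Akr1c18 in controls was also lost without untreated control library 1.

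Over the 24 libraries, the likeness between members was described by Pearson's correlation of log2(TPM + 0.1) among the 46 members, across libraries that share tissue, treatment and marker content. Aldh1a1 was most like Ces1g (r = 0.761), Akr1c19 (0.746) and Aldh1a7 (0.719). Ces2a was most like Ces2c (0.965), Ces2d-ps (0.873) and Akr1b7 (0.846), and Akr1b7 most like Ces2c (0.85). Ces1d was most like Adh5 (0.793), and Aldh1a2 most like Adh6a (0.664). The Ces1, Ces2 and Akr1c genes lie in clusters of near copies, so reads may be shared among them, and how such reads were assigned is not stated in the labels.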

How the data were processed

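Per the file headers, each deposited file gives the authors' estimated (expected) count and a TPM value for each RefSeq transcript. Per the submitters' processing notes RSEM 1.2.11, FastQC and build mm10 are named, in roles the notes leave unstated. Aligner, strand setting and filters: not given in the sources used here. Hence overlapping and antisense genes could not be told apart. The authors' expected counts were summed per gene symbol and rounded. The deposited TPM values were summed per symbol and used for levels between genes. Within groups, 36 pairs of libraries were checked and none agreed within sampling noise.

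Genes were tested in R 4.3.3 by the quasi-likelihood method of edgeR 4.0.16, after TMM scaling and filterByExpr, with Benjamini-Hochberg adjustment over all genes. The 8 epithelial libraries (12941 genes) and the 16 wall libraries (16074 genes) were fitted apart, and the tissues with the 8 epithelial and 8 untreated wall libraries (15073 genes). The filter kept 40 of 59 members in epithelial cells and 46 in wall. Each SE was obtained from the fold change (log2) and the root of its F statistic. The steps were tested on simulated counts. Alternatives were DESeq2 1.42.0, limma-voom (limma 3.58.1) with quality weights, RLE size factors, no filter, the replicate number as a block, a term for the file number prefix, only the groups compared, leaving out each library, wall replicate 4 of every group, and the epithelial pair that stood apart.

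The members, gene lists and tests were chosen with earlier results of these data known. A rule chose 26 members for per-library values. They were members past the threshold in a genotype comparison and the 5 with the smallest p in each. The 6 largest changes in each DSS and tissue comparison and the 6 highest in control epithelial cells and control wall were added. Not all of the 26 are printed by library, and Adh6a is not. Other members are named from counts or as examples chosen after their values were seen, and the values of Ces2a, Aldh18a1 and Aldh5a1 are among these.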

Additional observations from a re-analysis of the deposited data

Results flagged for a closer look

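In a group of 4 libraries, chance alone sets 1 value far from the other 3 in about 1 of 20 groups. Such a gap was seen in 30 of 139 groups of 4 looked at over 26 members, most of them in epithelial cells. The 26 were chosen partly by their values, and the share over all genes was not computed. Control epithelial library 3 and transgenic library 1 were both above all other epithelial libraries in 24.7% of all genes, and both below in 18.6%. In control epithelial cells library 3 was far above the rest for Akr1a1 (808 CPM against at most 541), Akr1c12 (219), Akr1c13 (322), Akr1c18 (8.14), Akr1c19 (241), Aldh1a1 (448), Aldh1l1 (46.5), Aldh2 (642), Aldh3b1 (15), Aldh6a1 (43.2), Ces1f (246), Ces1g (250) and Ces2c (799). In transgenic epithelial cells library 1 was far above the rest for Akr1c12 (265 CPM), Akr1c13 (400.0), Akr1c18 (8.51), Aldh16a1 (129), Aldh1a1 (712), Ces1g (563) and Ces2d-ps (4.25). These are the pair of libraries with the highest absorptive colonocyte marker level. Aldh1a3 was highest in control epithelial library 2 (3.74 CPM).

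In untreated control wall Aldh1a1 (32.5 CPM) and Aldh3a1 (0.728) were low in library 2, and Ces1f (16.4) in library 4. In untreated transgenic wall Aldh1a1 was low in library 2 (37.0 CPM), and Aldh1l1 (230.0) and Aldh6a1 (42.4) were high in library 4. After DSS, Ces1e was high in control library 1 (3.92 CPM), Ces2c in control library 2 (461), and Aldh3b1 low in transgenic library 3 (8.73).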

How the results depend on the processing

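Signs were compared between the main fit and each alternative for the 26 members chosen by rule, and none of these called in either fit changed sign. Outside the 26, Ces2b changed sign for tissue in controls. It was fitted above 0 with all libraries and called lower without the epithelial pair. Values of members called in neither could change sign. For genotype in epithelial cells, the log2 fold change of Aldh1a1 ran from -0.41 to 2.7 over 14 alternative fits. That of Ces2c ran from -0.99 to 2.01 over 14, and that of Akr1c18 from -1.41 to 2.85 over 13. Ces1g (0.22 to 2.68), Ces1f (0.62 to 1.65) and Aldh1a7 (0.54 to 1.33) stayed above 0 there. Counts of members called by edgeR moved by over 1.5 times as follows, and the cause was not tested. Genotype in epithelial cells went from 0 to 8 with limma-voom and to 6 without the pair of libraries. In untreated wall it went from 0 to 3 with DESeq2, 8 with limma-voom and 1 without wall replicate 4. After DSS it went from 0 to 1 with DESeq2. Averaged over wall it went from 2 to 6 with DESeq2 (0.653% of all genes) and to 4 with limma-voom, Ces1g not among them (1.27% of all genes). It went to 1 with a term for the file number prefix and to 0 without wall replicate 4. With limma-voom the DSS counts were 30 in controls and 29 in transgenic wall, the tissue count in controls was 37 (15 higher and 22 lower) and the tissue-by-genotype count was 1, where limma-voom called 59.1%, 58.3%, 67.9% and 5.49% of all genes. Without wall replicate 4, Ces2d-ps (-2.35) made the DSS-by-genotype count 1. Leaving out 1 library gave 0 to 1 in untreated wall, 0 to 1 after DSS, 0 to 5 averaged, 11 to 20 for DSS in controls, 11 to 24 for DSS in transgenic wall, 23 to 25 and 21 to 27 for tissue, and 0 for the other 3.

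The replicate numbers gave no sign of pairing the libraries: deviations of same-numbered libraries correlated between -0.558 and 0.281 in epithelial cells and between -0.328 and 0.287 in wall. Deviations were taken from group means that include the libraries standing apart, so the check cannot exclude a pairing. With the number as a replicate block the averaged count was 1, Aldh1a1 being lost (adjusted p 0.0652), and no other count moved by over 1.5 times. Epithelial libraries are the shallowest, so low members such as Ces2f rest on few counts there.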
